A study of Mus musculus with 8 samples.

Results

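Complement and coagulation factors were measured in mouse liver with and without deletion of Brap, as 48 genes out of the 24451 in the deposited table. The genes were taken by symbol from a list drawn up with earlier results of these data known, and all 48 were found. Of these, 34 encode plasma proteins that hepatocytes make, and 14 are expressed mainly by macrophages and other myeloid cells (7), by endothelium (4) or by other or mixed sources (3). All 48 passed the filter for testing, an average of 5 or more normalized counts across the 8 livers.

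Most plasma proteins of complement and of coagulation are secreted by hepatocytes. Complement is started by antibody-bound C1, by lectins that bind sugars on microbes, or by the alternative pathway, and each route cleaves C3 and then C5, after which the terminal components assemble into a pore in the target membrane. Coagulation is a chain of serine proteases that ends with thrombin, which turns fibrinogen into fibrin. Antithrombotic proteins hold the chain in check, and plasmin dissolves the clot. Several of the hepatocyte proteins, fibrinogen above all, are acute phase proteins, whose genes are induced by interleukin-6 through STAT3. C1q, the complement anaphylatoxin receptors and properdin come mainly from macrophages and other myeloid cells, whereas von Willebrand factor, thrombomodulin and tissue plasminogen activator come from endothelium.

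RNA of the left liver lobe was sequenced for 4 Brap LKO mice (Brap fl/fl; Alb Cre+) and 4 Brap F/F mice (Brap fl/fl without Cre, labelled wild type). All mice were C57BL/6 males of 18 wk that had been fasted for 6 h, and both groups carried the floxed allele, whose exons 2 and 3 are removed by Cre. Cre was driven by the Albumin promoter, which is active in hepatocytes, so the macrophages and endothelial cells of the lobe were not its target. Values are reads counted on each gene and divided by a size factor for each liver (normalized counts), from 26280884 to 33313914 reads per liver.

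The targeted gene did not separate the groups. Brap gave 4042, 4203, 4065 and 3641 normalized counts in Brap LKO and 4410, 4235, 3994 and 4106 in Brap F/F. The log2 fold change was -0.07 (standard error 0.0676), and reads on the floxed exons were not analysed here, so this total left the labels unchecked. Hepatocyte markers were abundant in every liver: the summed counts of 11 markers lay between 2483485 and 3284049 in Brap LKO and between 3098431 and 4447791 in Brap F/F. Their median log2 fold change was -0.29, with 10 of the 11 below 0 and a lowest value of -0.86. Of the 11, 0 passed the threshold (limma; 3 at an unadjusted p under 0.05). Since this is RNA of whole tissue, fewer cells of a type and less RNA per cell cannot be told apart.

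None of the 48 genes passed an adjusted p of 0.05 between the groups in the main test (limma on log2(normalized count + 1), Benjamini-Hochberg adjustment over the 15352 genes tested), in which 0.769% of all genes tested passed. The lowest adjusted p-values were those of Vwf (0.0611), C3ar1 (0.084) and Plat (0.129), all 3 higher in Brap LKO and none of them made by hepatocytes. At an unadjusted p under 0.05 there were 6 of 48 genes (C8g, C3ar1, Vwf, Tfpi, Plat and Mbl2), against 15.8% of all genes. The values of the groups did not overlap for 6 genes, C3ar1 and Vwf with the higher values in Brap LKO and Masp2, C8g, F2 and F12 with the lower, against 9.87% of all genes. Both shares are at or near the background. The quasi-likelihood test of edgeR on the recovered reads called 0 of the 48 (0.795% of all genes), and DESeq2 called 3, C3ar1, Vwf and Plat, all higher (3.7% of all genes).

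The 34 hepatocyte genes were spread evenly about 0. Their median log2 fold change was 0.0041, as against -0.01 for all genes tested, with 17 above 0 and 17 below, from -0.28 (Mbl2) to 0.75 (C6). The change was under 0.2 in size for 25 of the 34, against 59.8% of all genes, and the 95% confidence interval lay within 0.5 on either side of 0 for 21 of the 34, against 49.9%. Together the 34 genes took a share of all normalized counts that was 4.50% ± 0.705 (SD, n = 4) in Brap LKO and 4.33% ± 1.28 (SD, n = 4) in Brap F/F. The total that it divides by was 27440741 to 28975099 in Brap LKO and 29964617 to 32729998 in Brap F/F. The share is thus on another scale than the fold changes, and its direction cannot be set beside theirs. The other 14 genes lay mostly above 0: the median was 0.25 for the 7 myeloid genes, 0.55 for the 4 endothelial genes and 0.26 for the 3 genes of other sources.

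**Figure D1:**
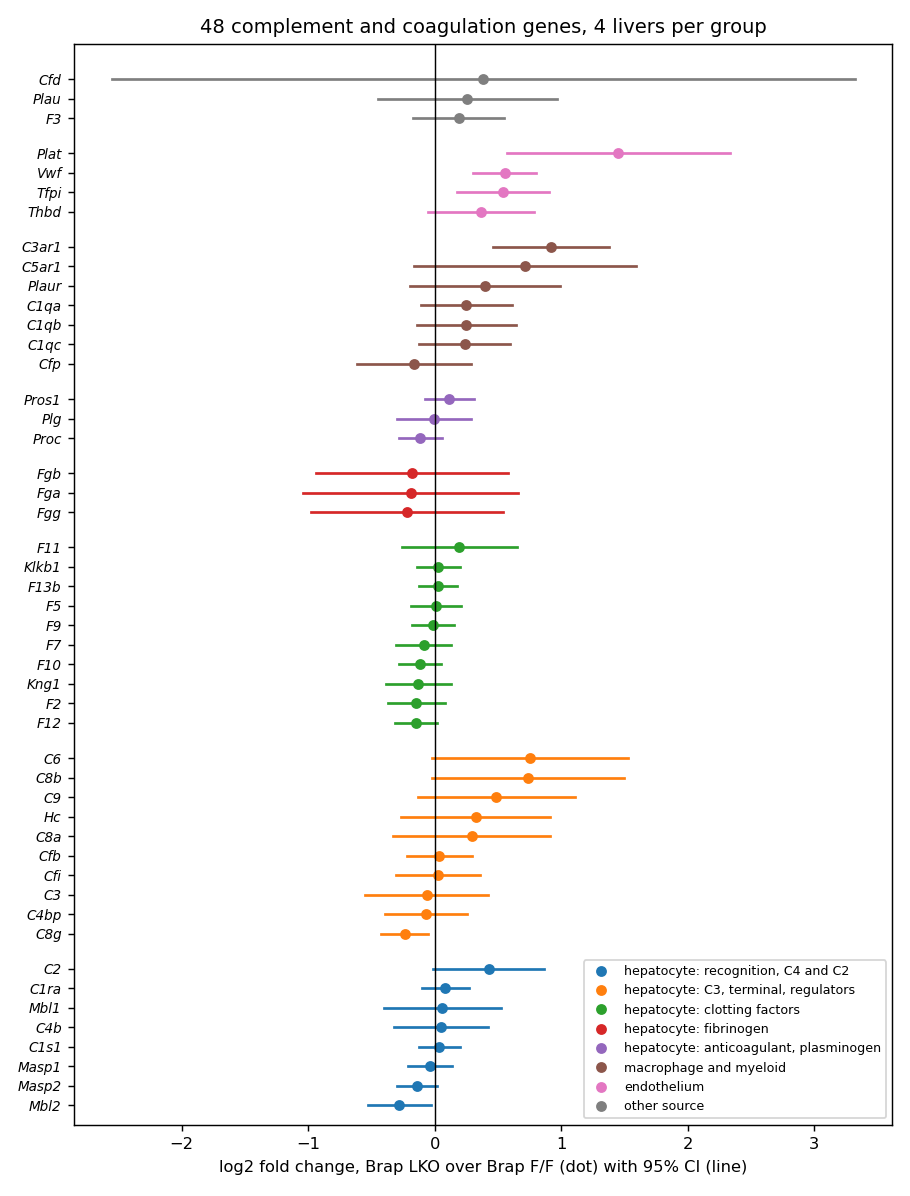
Log2 fold change of each of the 48 genes (dot, x axis, Brap LKO over Brap F/F) with its 95% confidence interval (line), from limma with 4 livers per group, ordered within the 8 classes. The hepatocyte classes lie about 0 with narrow intervals for the clotting factors and wide ones for fibrinogen and the terminal components, and all 4 endothelial genes lie above 0.

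The most abundant mRNAs per length were those of fibrinogen and C3. Over the 8 livers Fga had 61926 normalized counts per kilobase of exon, C3 58853, Fgg 51754 and Fgb 39342, followed by Plg (24986), Kng1 (15030) and F2 (12613). Among the genes of other cells the highest on this scale was C1qa (956), and the lowest of the 48 was Plat (4.19). C2 (262) was the lowest of the 34 hepatocyte genes, and 10 of the 14 other genes lay below it.

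Fibrinogen, the substrate of thrombin and a hexamer of 3 kinds of chain, is encoded by Fgg, Fga and Fgb, which lie next to each other on chromosome 3 (83007724 to 83049863, GRCm38). Fga was found at 118317, 159708, 138142 and 262931 normalized counts in Brap LKO and at 216128, 122392, 126289 and 347272 in Brap F/F. Fgg was found at 73931, 92669, 80643 and 143253 in Brap LKO and at 132125, 74716, 75424 and 193809 in Brap F/F. Both genes were highest in Brap F/F replicate 4, followed by Brap LKO replicate 4 and Brap F/F replicate 1, so the groups overlapped. The log2 fold changes were -0.19 for Fga (95% confidence interval -1.04 to 0.66, adjusted p = 0.833), -0.18 for Fgb and -0.22 for Fgg (95% confidence interval -0.98 to 0.54, adjusted p = 0.782, limma). Without Brap F/F replicate 4, the values were 0.11 for Fga and 0.06 for Fgg. Leaving the group aside, the highest liver had 2.94 times the Fga of the lowest.

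The 3 chains kept close to fixed proportions while their level moved. Per kilobase, Fgb stood to Fgg between 0.716 and 0.790 in all 8 livers, and Fga to Fgb between 1.47 and 1.74. The promoters are shown because the 3 genes move together across livers. Capitals mark matches, on either strand, to 4 short sequences: TTCNNNGAA (STAT), CTGGGAA (an interleukin-6 response element), TTGCNNAA (C/EBP) and GTTAAT (the core of an HNF1 site). The first can share bases with the second. Each sequence holds 250 bases before the gene's start and 50 from the start on (RefSeq, GRCm38.p6).
Fga promoter, chr3:83025903-83026202, plus strand: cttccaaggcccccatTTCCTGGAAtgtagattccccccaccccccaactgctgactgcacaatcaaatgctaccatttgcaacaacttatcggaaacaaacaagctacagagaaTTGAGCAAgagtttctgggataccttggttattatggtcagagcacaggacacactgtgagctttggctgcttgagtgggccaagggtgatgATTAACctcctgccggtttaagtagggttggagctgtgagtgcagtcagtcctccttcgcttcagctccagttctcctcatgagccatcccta
Fgb promoter, chr3:83049814-83050113, minus strand: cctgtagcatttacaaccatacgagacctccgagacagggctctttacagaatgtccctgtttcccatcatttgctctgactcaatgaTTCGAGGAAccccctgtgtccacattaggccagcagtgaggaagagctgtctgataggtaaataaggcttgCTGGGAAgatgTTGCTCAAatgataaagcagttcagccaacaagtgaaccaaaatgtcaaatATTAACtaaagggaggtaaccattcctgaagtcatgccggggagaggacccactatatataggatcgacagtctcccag
Fgg promoter, chr3:83007474-83007773, plus strand: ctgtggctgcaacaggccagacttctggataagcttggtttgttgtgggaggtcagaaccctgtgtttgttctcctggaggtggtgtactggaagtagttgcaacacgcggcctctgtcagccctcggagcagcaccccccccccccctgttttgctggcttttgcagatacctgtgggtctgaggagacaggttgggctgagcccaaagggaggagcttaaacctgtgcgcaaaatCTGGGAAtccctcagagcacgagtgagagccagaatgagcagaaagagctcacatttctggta

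Counted from 0 at the start base, Fga held the STAT letters at -234 to -226, the C/EBP letters at -135 to -128 and the HNF1 core at -43 to -38. Fgb held all 4, at -162 to -154 (STAT), -91 to -85 (interleukin-6), -80 to -73 (C/EBP) and -29 to -24 (HNF1). Fgg held only the interleukin-6 letters, at -13 to -7. Such matches are frequent: of the 32851 promoters searched, 8.30% held the STAT letters, 11.1% the interleukin-6 letters, 10.8% the C/EBP letters and 7.10% the HNF1 core. Promoters were matched for 35 of the 48 genes. Of the 26 hepatocyte genes among them, 7 held the STAT letters, 6 the interleukin-6 letters, 9 the C/EBP letters and 9 the HNF1 core. A match is a description of the sequence and not a binding site.

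The 3 livers that were highest for fibrinogen were also highest for the acute phase genes. Saa1, which encodes the acute phase apolipoprotein serum amyloid A, was at 1071, 2415, 2572 and 4936 normalized counts in Brap LKO and at 6111, 344, 377 and 11160 in Brap F/F. An acute phase level was taken over 16 genes, none of them among the 48. These were Saa1, Saa2, Saa3, Hp, Orm1, Orm2, Apcs, Lcn2, Itih3, Itih4, Hpx and, as regulators and receptors, Cebpd, Socs3, Il1r1, Il6ra and Stat3. The mean deviation of the 16 from the average of the 8 livers was -0.56, -0.13, -0.19 and 0.48 on the log2 scale in Brap LKO replicates 1 to 4. It was 0.61, -0.60, -0.74 and 1.13 in Brap F/F replicates 1 to 4. The acute phase level was thus highest in Brap F/F replicates 4 and 1 and Brap LKO replicate 4 and lowest in Brap F/F replicates 3 and 2. None of the 16 genes passed the threshold between the groups (limma, 1 at an unadjusted p under 0.05), and their median log2 fold change was -0.18.

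The same 3 livers held the highest values for 12 of the 34 hepatocyte genes, against 8.21% of all genes tested, and these included all 3 fibrinogen genes and 5 of the 10 genes for C3, the terminal components and their regulators. Brap F/F replicates 2 and 3 held the lowest values for 15 of the 34, against 11.8% of all genes, and for 8 of those 10. This choice of livers was made after the values were seen and has no test. For 30 of the 34 genes the spread was larger among Brap F/F than among Brap LKO livers, against 64.0% of all genes tested. The median SD of the 34 was 0.19 in Brap F/F and 0.10 in Brap LKO on the log2 scale. The labels give animal numbers but name no series, and the numbers were split here into a lower and a higher series by a chosen cut. Most Brap LKO livers fell in the lower series. Most Brap F/F livers, replicates 2, 3 and 4, fell in the higher. Brap F/F replicates 2 and 3 have consecutive animal numbers. A fit with the series as a covariate, given below, compares the groups. The part of the series in this spread and in the low values of these 2 livers was not tested.

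**Figure D2:**
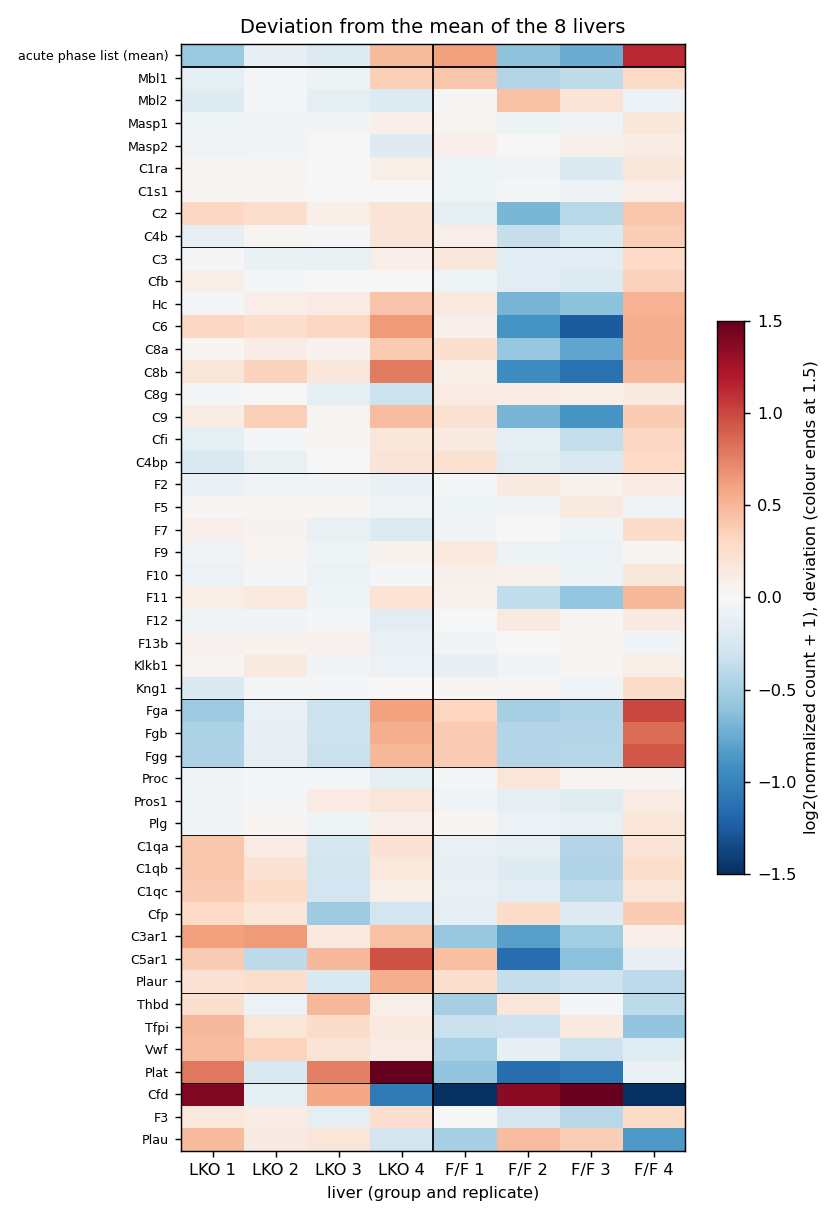
Deviation of log2(normalized count + 1) from the mean of the 8 livers (colour, red above and blue below, ending at 1.5) for the 48 genes (rows, by class) in each liver (columns), with the mean of the 16 acute phase genes in the top row. Fibrinogen is red in Brap LKO replicate 4 and Brap F/F replicates 1 and 4, where the acute phase row is red, and Hc, C6, C8a, C8b and C9 are blue only in Brap F/F replicates 2 and 3 apart from the faint Hc value in Brap LKO replicate 1.

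Of the terminal complement genes, C8b and C6 varied most between livers, with the highest liver at 3.73 times the lowest for C8b and 3.70 times for C6. C6, which encodes a component of the membrane attack complex (chromosome 15, 4727175 to 4814967), was at 11196, 10765, 11166 and 14023 normalized counts in Brap LKO and at 9499, 4907, 3791 and 13208 in Brap F/F. Its log2 fold change of 0.75 was the largest of the hepatocyte genes, and the 95% confidence interval of -0.02 to 1.53 reached 0 (adjusted p = 0.329, limma). Brap F/F replicate 4 lay within the Brap LKO range, while Brap F/F replicates 2 and 3 lay far below it. The animal numbers of Brap F/F replicates 2 and 3 are consecutive, and replicate 4 fell in the same series. The fit with the series as a covariate compares the groups, and the cause of the low values of replicates 2 and 3 was not tested. C8b, which encodes the beta chain of C8, was at 12839, 14409, 12713 and 19373 in Brap LKO and at 12048, 5919, 5193 and 15848 in Brap F/F. Its log2 fold change was 0.74 (adjusted p = 0.329). The pore-forming component C9 (0.49), Hc, which encodes C5 (0.32), and C8a, which encodes the alpha chain of C8 (0.29), showed the same 2 low Brap F/F livers. Single Brap F/F livers set the size of all 5 values. Without replicate 3 they were 0.46 for C6, 0.49 for C8b, 0.27 for C9 and 0.076 for C8a, and without replicate 2 Hc was at 0.15. Without replicate 4 they were 1.06 for C6, 1.02 for C8b, 0.69 for C9, 0.55 for Hc and 0.52 for C8a. Hc, for example, ranged from 41530 to 56442 in Brap LKO and was at 46294, 25903, 27317 and 60158 in Brap F/F.

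C8g, which encodes the gamma chain linked to C8 alpha, did not go with its partners. It was at 6541, 6658, 5973 and 5305 normalized counts in Brap LKO and at 7232, 7164, 7069 and 7289 in Brap F/F. Every Brap LKO liver was below every Brap F/F liver, by -0.24 on the log2 scale (standard error 0.0816). The adjusted p was 0.216 by limma, and the exact permutation p was 0.0286, the smallest that 70 arrangements allow. The Brap F/F livers had nearly the same value, with an SD of 94.7. With the same total for every liver the log2 fold change was -0.08, where the median of all genes moved from -0.01 to 0.15.

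C8a and C8b are neighbours on chromosome 4 with 11130 bases between them, on opposite strands, and their proportion was compared between the groups. Per kilobase, C8a stood to C8b at 1.65, 1.56, 1.69 and 1.41 in Brap LKO and at 2.04, 2.36, 2.31 and 1.91 in Brap F/F, without overlap. The means were 1.58 ± 0.125 (SD, n = 4) and 2.15 ± 0.216 (SD, n = 4), with an exact permutation p of 0.0286 that became 0.214 after adjustment over the 15 pairs of partner or neighbour genes compared. A ratio within a liver does not depend on the scaling of that liver. Within each group the ratio was lowest in replicate 4, the liver with the highest acute phase level of its group. The promoters are shown for this pair of neighbours, with capitals as above, and their part in the ratio was not tested.
C8a promoter, chr4:104876349-104876648, minus strand: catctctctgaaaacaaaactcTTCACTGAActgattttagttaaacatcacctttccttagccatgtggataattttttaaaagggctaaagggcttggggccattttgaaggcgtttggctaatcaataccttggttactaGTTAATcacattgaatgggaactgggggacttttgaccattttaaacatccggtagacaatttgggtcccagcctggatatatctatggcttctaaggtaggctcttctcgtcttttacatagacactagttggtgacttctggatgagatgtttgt
C8b promoter, chr4:104766067-104766366, plus strand: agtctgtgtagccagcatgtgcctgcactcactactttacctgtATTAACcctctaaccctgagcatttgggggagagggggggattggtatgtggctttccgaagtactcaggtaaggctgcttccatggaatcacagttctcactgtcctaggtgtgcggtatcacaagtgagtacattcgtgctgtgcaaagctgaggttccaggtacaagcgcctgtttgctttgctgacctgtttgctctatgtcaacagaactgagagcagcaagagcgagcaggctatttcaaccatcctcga

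In these windows C8a held the STAT letters at -228 to -220 and the HNF1 core at -107 to -102, and C8b held the HNF1 core at -206 to -201. C6 held the interleukin-6 letters at -5 to 1.

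**Figure D3:**
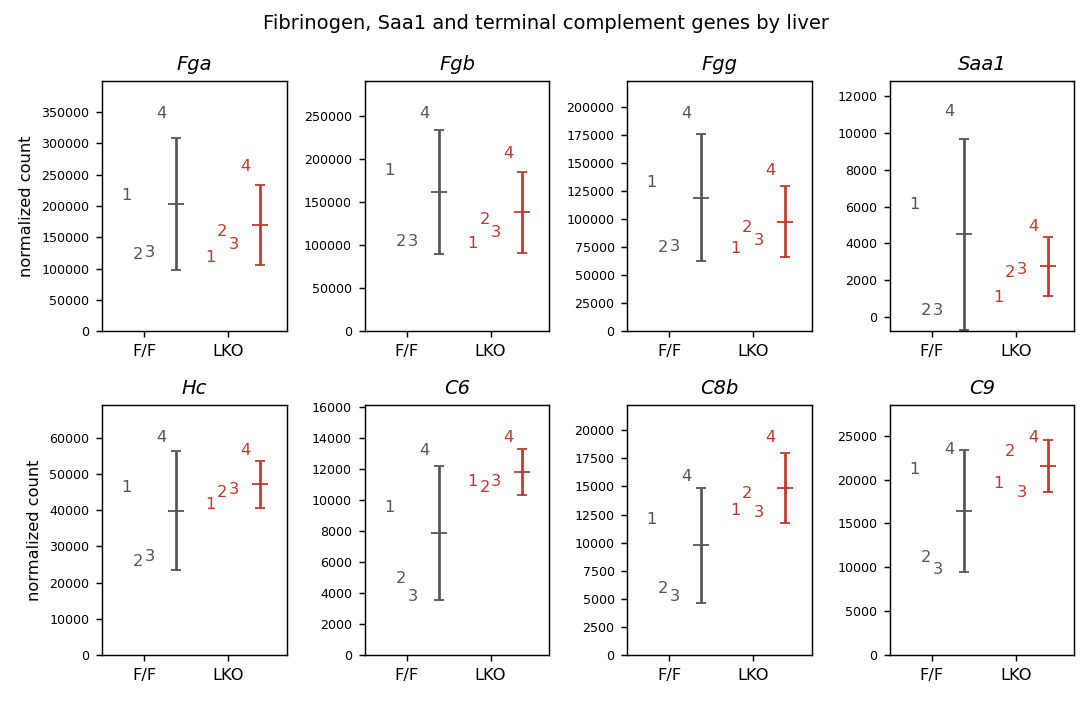
Normalized counts of the fibrinogen genes, Saa1 and 4 terminal complement genes (panels, y axis) in each liver, with digits for the replicates and bars for the mean ± SD of 4 livers. Replicate 4 is the highest liver of its group in all panels, and in Brap F/F replicates 2 and 3 are the lowest.

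The central component C3 (chromosome 17, 57203970 to 57228136) was at 295554, 281760, 279104 and 323113 normalized counts in Brap LKO and at 338707, 266250, 267027 and 369949 in Brap F/F. The Brap LKO values lay inside the Brap F/F range, and the log2 fold change was -0.06 (95% confidence interval -0.55 to 0.42). Cfb, the protease of the alternative pathway convertase, was at 0.04, Cfi, which cleaves C3b and C4b, at 0.03 and C4bp, the C4b-binding protein, at -0.07 on the same log2 scale.

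Of the 8 genes for recognition and the C4 and C2 steps, 6 had a log2 fold change under 0.2 in size, and the median was 0.04. C4b, the most abundant of them per length (7827 normalized counts per kilobase), was at 40324, 45450, 43701 and 50354 in Brap LKO and at 47371, 34728, 37604 and 57065 in Brap F/F, and its log2 fold change was 0.05. C4b has a near-identical copy, C4a (log2 fold change -0.03), and how reads were split between them is not given in the sources used here. The proteases of the C1 complex, C1ra (0.08) and C1s1 (0.04), and the lectin Mbl1 (0.06) were near 0.

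Mbl2, which encodes another mannose-binding lectin, had the lowest log2 fold change of the hepatocyte genes, -0.28 (95% confidence interval -0.53 to -0.03, adjusted p = 0.273, limma). It was at 5668, 6319, 5896 and 5619 in Brap LKO and at 6533, 8739, 7416 and 6095 in Brap F/F, where replicate 4 lay inside the Brap LKO range. Masp2, the lectin pathway protease that cleaves C4 and C2, was at 8712, 8812, 9096 and 7934 in Brap LKO and at 9518, 9125, 9600 and 9813 in Brap F/F, without overlap. Its log2 fold change was -0.14 (adjusted p = 0.36; exact permutation p = 0.0286), and 0.02 with the same total for every liver. Exons of Tardbp on the opposite strand cover 54.9% of the exon bases of Masp2, and since the use of strand is not given, reads of both may be in its count. Masp1 (-0.03) was near 0.

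C2, the protease of the classical and lectin convertase, was at 1218, 1187, 1045 and 1122 normalized counts in Brap LKO and at 886, 613, 737 and 1299 in Brap F/F. The log2 fold change was 0.43 (95% confidence interval -0.02 to 0.87, adjusted p = 0.333, limma), and Brap F/F replicate 4 was the highest of the 8. Without that liver C2 was called, at 0.63 (adjusted p = 0.0492), as was C3ar1, in a fit that called 1.51% of all genes. C2 and Cfb lie 85 bases apart on chromosome 17 on the same strand. Per kilobase, C2 stood to Cfb at 0.279 ± 0.0168 (SD, n = 4) in Brap LKO and at 0.215 ± 0.0349 (SD, n = 4) in Brap F/F, the only other of the 15 pairs without overlap (exact permutation p = 0.0286, adjusted p = 0.214). An annotated transcript over both genes (Gm20547) shares 42.8% of the exon bases of C2 and 79.5% of those of Cfb.

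The clotting factors differed little. All 10 had a log2 fold change under 0.2 in size, with a median of -0.05, and for 9 of the 10 the 95% confidence interval lay within 0.5 of 0. F2, which encodes prothrombin (chromosome 2, 91625320 to 91636414), was at 53889, 55607, 56371 and 54169 in Brap LKO and at 57128, 63276, 60093 and 63016 in Brap F/F. F12, the contact factor XII, was at 15786, 15977, 16133 and 14817 in Brap LKO and at 16543, 18114, 16790 and 18131 in Brap F/F. In both, every Brap LKO liver was lower, by little: each log2 fold change was -0.15 (adjusted p = 0.508 for F2 and 0.367 for F12, limma; exact permutation p = 0.0286 for each). With the same total for every liver both were at 0.01.

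Kng1, the kininogen of the contact system and the most abundant of these per length, was at 41963, 47886, 47644 and 48995 in Brap LKO and at 49356, 49321, 46597 and 59030 in Brap F/F (log2 fold change -0.13). F11, which encodes factor XI, had the largest change in this class, 0.19, and the widest spread, from 2979 to 3613 in Brap LKO and with 3275, 2417, 2094 and 4380 in Brap F/F. Without Brap F/F replicate 3 its log2 fold change was 0.034, and without Brap F/F replicate 4 it was 0.39. Its order of livers within Brap F/F was that of the acute phase level, and within Brap LKO it was not. There F11 was lowest in replicate 3 and the acute phase level in replicate 1. Klkb1, plasma prekallikrein and the neighbour of F11, stayed between 4816 and 5778 in all 8 livers (0.03), and 43.2% of its exon bases are shared with Gm45753 on the same strand. The vitamin K-dependent factors F7 (-0.09), F9 (-0.01) and F10 (-0.12), the cofactor F5 (0.01) and F13b, the carrier subunit of factor XIII (0.03), were near 0 as well.

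Among the anticoagulant and fibrinolytic proteins of hepatocytes, Plg, which encodes plasminogen, was at 89700, 94261, 88486 and 97452 in Brap LKO and at 94107, 86961, 85886 and 104922 in Brap F/F. The means differed by less than the spread, and the log2 fold change was -0.0041 (95% confidence interval -0.29 to 0.29). Pros1, the protein S cofactor, was at 2264, 2341, 2584 and 2680 in Brap LKO and at 2301, 2160, 2080 and 2579 in Brap F/F (0.12), and Proc, which encodes protein C, was at -0.11. The median of the 3 was that of Plg.

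Of the 11 genes of macrophages and endothelium, 10 had a log2 fold change above 0 and 0 passed the main test. C3ar1, the receptor for C3a (chromosome 6, 122847138 to 122856161), was at 131, 133, 94.1 and 115 normalized counts in Brap LKO and at 57.0, 47.8, 58.9 and 89.3 in Brap F/F. All Brap LKO livers were above all Brap F/F livers, 1.89-fold on the fitted scale, or 0.92 on the log2 scale with a standard error of 0.205 (adjusted p = 0.084 by limma; exact permutation p = 0.0286). DESeq2 gave an adjusted p of 0.00489 and edgeR 0.0866. With the same total for every liver, where 3.12% of all genes passed, C3ar1 (adjusted p = 0.0362) and Vwf (adjusted p = 0.0155) were the genes called among the 48. C5ar1, the C5a receptor, was at 0.72 (adjusted p = 0.4) on 9.15 to 42.6 counts, and Plaur, the urokinase receptor, at 0.40.

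The 3 chains of C1q, which lie side by side on chromosome 4 and make up the recognition molecule of the classical pathway, had nearly the same log2 fold change: 0.25 for C1qa, 0.25 for C1qb and 0.24 for C1qc. C1qa was at 1301, 1069, 818 and 1139 in Brap LKO and at 906, 889, 719 and 1115 in Brap F/F, so the groups overlapped (adjusted p = 0.474, limma). Per kilobase C1qa stood to C1qb between 1.02 and 1.14 in all livers. Cfp, which encodes properdin, the stabilizer of the alternative pathway convertase, was the only myeloid gene under 0 (-0.16).

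Macrophage markers were measured beside these genes. Of 12 general macrophage markers, 0 passed the threshold (limma; 6 at an unadjusted p under 0.05), 10 were above 0 and the median log2 fold change was 0.47. The other 2 were below 0, and the changes ran from -1.20 to 0.96, so the markers did not all move together. Their summed counts were 9882 to 16705 in Brap LKO and 9554 to 13056 in Brap F/F, and none was at 0. Of 8 tested markers of recruited macrophages and monocytes, 3 passed, all higher (Gpnmb, Itgax and Cx3cr1), with summed counts of 2767 to 4592 in Brap LKO and 2051 to 2774 in Brap F/F. The part of these cells in the values of C3ar1 was not tested.

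Vwf, which encodes von Willebrand factor, the platelet-binding protein of endothelium (chromosome 6, 125546774 to 125686679), had the lowest adjusted p of the 48. It was at 486, 443, 405 and 383 normalized counts in Brap LKO and at 251, 323, 284 and 312 in Brap F/F, without overlap. The difference was 0.55 on the log2 scale (standard error 0.111, 95% confidence interval 0.30 to 0.80, adjusted p = 0.0611 by limma; exact permutation p = 0.0286), and DESeq2 gave an adjusted p of 0.00159. Plat, tissue plasminogen activator, was at 37.3, 17.8, 36.4 and 65.5 in Brap LKO and at 13.7, 9.15, 9.46 and 19.6 in Brap F/F. Only Brap LKO replicate 2 and Brap F/F replicate 4 overlapped, and the log2 fold change of 1.45, with a standard error of 0.392 (adjusted p = 0.129, limma), was the largest of the 48. Tfpi, the inhibitor of the tissue factor pathway, was at 204, 164, 175 and 160 in Brap LKO and at 115, 117, 161 and 96.2 in Brap F/F (log2 fold change 0.54, adjusted p = 0.168). Thbd, thrombomodulin, was at 139, 110, 166 and 125 in Brap LKO and at 83.2, 133, 116 and 89.3 in Brap F/F (0.37, adjusted p = 0.373).

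All 4 endothelial genes were thus above 0, and endothelial markers were too. The 12 markers of sinusoidal endothelium were all above 0 with a median log2 fold change of 0.19, and 0 passed the threshold (limma; 0 at an unadjusted p under 0.05). Their summed counts were 12746 to 18355 in Brap LKO and 10759 to 16991 in Brap F/F. The 11 tested markers of vascular endothelium were all above 0 with a median of 0.30, again with 0 past the threshold (4 at an unadjusted p under 0.05), and summed counts of 1171 to 1474 in Brap LKO and 835 to 1496 in Brap F/F. Markers of other cell types of the liver lay mostly above 0 as well. Of 10 cholangiocyte markers all 10 were above 0, with a median of 0.86, 1 past the threshold and 6 at an unadjusted p under 0.05, and their summed counts did not overlap (3896 to 4531 in Brap LKO and 1654 to 3599 in Brap F/F). Of 12 markers of stellate cells and fibroblasts 10 were above 0, with a median of 0.37 and 1 past the threshold, and summed counts of 10900 to 15854 in Brap LKO and 7980 to 14446 in Brap F/F. Of 7 mesothelial markers 4 were above 0, with a median of 0.084 and 1 past the threshold, and summed counts of 88.3 to 289 in Brap LKO and 60.4 to 186 in Brap F/F. The part of the numbers of these cells in the values of Vwf, Plat and Tfpi was not tested.

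**Figure D4:**
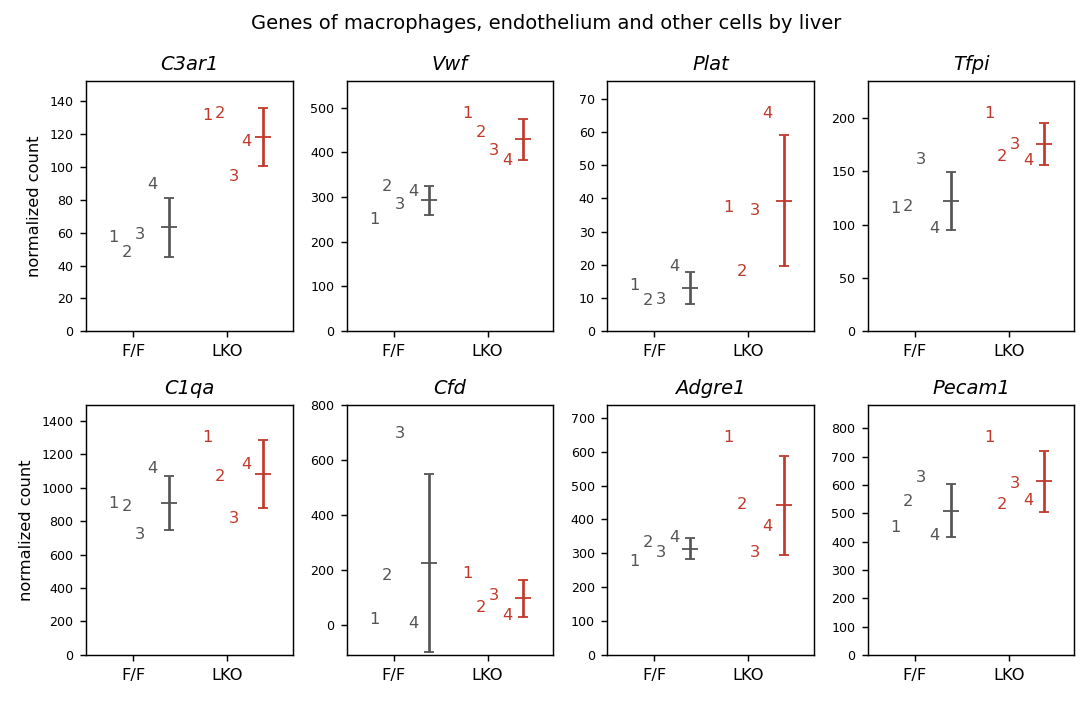
Normalized counts (y axis) in each liver of C3ar1, Vwf, Plat, Tfpi, C1qa and Cfd, and of the markers Adgre1 (macrophages) and Pecam1 (endothelium), with digits for the replicates and bars for the mean ± SD of 4 livers. C3ar1 and Vwf do not overlap between the groups, and Cfd spreads from 4.91 to 696 in Brap F/F.

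Of the genes from other sources, Cfd, which encodes adipsin, the factor D of the alternative pathway and a product of fat cells, varied most of the 48. It was at 186, 63.7, 106 and 33.3 in Brap LKO and at 19.4, 181, 696 and 4.91 in Brap F/F, a 142-fold range within Brap F/F alone. The log2 fold change was 0.39, within -2.55 to 3.33 at 95% confidence, and it turned below 0 in both count tests (-1.19 with edgeR and -1.21 with DESeq2). Adipoq, a defining marker of fat cells, was at 0 in 6 livers. It was at 4.20 in Brap F/F replicate 3, where Cfd was highest, and at 0.981 in Brap F/F replicate 4, where Cfd was lowest. These Adipoq values are near the floor, as 1 read is worth 1.05 and 0.981 there. Of 7 adipocyte markers in the table, 4 were tested, and 0 passed the threshold (limma; 1 at an unadjusted p under 0.05). Of the 4, 1 was above 0 and 3 below, with a median log2 fold change of -0.25. The summed counts of the 7 were 58093 to 95957 in Brap LKO and 69762 to 168269 in Brap F/F. Of the 7, 3 had a mean under 5 normalized counts, Adipoq among them. The sums thus come almost wholly from the 4 tested genes, and whether fat cells were their source was not tested. F3, tissue factor, which starts coagulation (0.19), and Plau, urokinase (0.26), overlapped between the groups.

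The groups were also compared after adjustment for the acute phase level, a setting chosen after the values were seen. With the mean of the 16 acute phase genes as a covariate, limma called 11 of the 48 genes, against 7.43% of all genes. Of these, 10 were higher in Brap LKO: C6 (log2 fold change 0.91, adjusted p = 0.00325), C8b (0.90, adjusted p = 0.000555), C9 (0.61, adjusted p = 0.00953), Hc (0.44, adjusted p = 0.0153), C8a (0.42, adjusted p = 0.0223), C2, C3ar1, Vwf, Tfpi and Plat. Mbl2 was lower (-0.32, adjusted p = 0.0414). The fibrinogen genes moved towards 0, to -0.02 for Fga, -0.03 for Fgb and -0.06 for Fgg. The covariate was measured in the same livers, and whether it is itself affected by the genotype was not tested. The fit used a common slope for both groups, and whether the slopes differ was not tested.

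**Figure D5:**
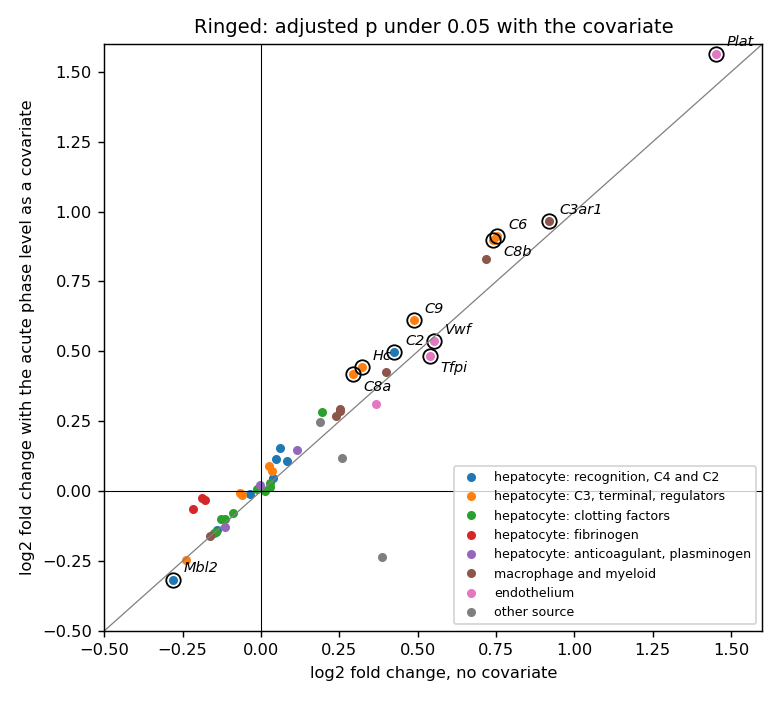
Log2 fold change of the 48 genes (Brap LKO over Brap F/F) without a covariate (x axis) and with the acute phase level as a covariate (y axis), coloured by class, with the line of equal values. The 11 ringed genes have an adjusted p under 0.05 with the covariate (limma, 4 livers per group), and C6, C8b, C9, Hc and C8a lie above the line.

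Other genes of both systems gave the wider context. Of 65 further complement and coagulation genes, 62 were in the table and 57 were tested. Of the 57, 1 was higher and 0 lower at an adjusted p of 0.05 (limma), against 0.769% of all genes. At an unadjusted p under 0.05 there were 10, against 15.8% of all genes. The median log2 fold change of the 57 was -0.01. The gene that passed was Itgax, the alpha chain of complement receptor 4 and also one of the markers of recruited macrophages. It was at 84.7, 46.7, 39.5 and 69.7 in Brap LKO and at 21.7, 21.4, 15.8 and 19.6 in Brap F/F, and its log2 fold change was 1.52 (adjusted p = 0.0402). Leaving out any 1 liver other than Brap F/F replicate 4 ended this call. The lowest value was that of Colec10, a lectin of the complement system, at -0.73 (adjusted p = 0.314).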

How the data were processed

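Liver RNA was sequenced by the authors as single-end reads of 50 bases (NuGEN Universal Plus mRNA libraries) and aligned to mm10 with STAR 2.6.0c. The counting tool, annotation release and use of strand are not given in the sources used here. The deposited signal is the normalized count, in which the authors scaled the reads of every gene by the size factors of DESeq2. All values (100%, tolerance 0.001) were multiples of a constant of their liver, so reads were recovered, and intervals cover the spread between livers. The authors' own table of the comparison, with its fold changes and p-values, was not used. The 48 genes, their classes and the further lists were chosen with earlier results of these data known.

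Groups were compared by limma 3.58.1 (R 4.3.3, moderated with a mean-variance trend, no covariates). Tested were log2(normalized count + 1) values of 15352 genes whose mean reached 5, with Benjamini-Hochberg adjustment and a threshold of 0.05. This scale understates changes of low genes. On the recovered reads, edgeR 4.0.16 called 122 genes and DESeq2 1.42.0 called 607. Permutation tests were two-sided and exact over 70 arrangements, with a smallest p of 0.0286. Each liver has its own animal number in the labels. The tests were tried on simulated data. Values in every liver are given for genes past the threshold, for genes whose groups do not overlap and, in each class, for the highest per kilobase of exon (GENCODE M21) and the largest change. Mbl2, Hc, C8b, Tfpi and other genes given with values were chosen after these were seen. Python 3.11.15, numpy 2.4.6, pandas 2.3.3 and scipy 1.17.1 were used.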

Additional observations from a re-analysis of the deposited data

Results flagged for a closer look

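Of 96 groups of 4 livers (48 genes in 2 groups), 6 held a liver whose gap to the nearest other took up nearly the whole range of its group (past the 95% critical value of Dixon), where chance gives about 4.8. Masp1 was at 9277 normalized counts in Brap LKO replicate 4, with the next at 8524. C6 was at 14023 in the same liver, with the next at 11196. F13b was lowest in that liver, at 5802, with the next at 6517. F5 was at 35621 in Brap F/F replicate 3, with the next at 31714. F7 was at 3735 in Brap F/F replicate 4, with the next at 3072. Plaur was at 16.0 in Brap F/F replicate 1, with the next at 10.5.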

How the results depend on the processing

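Under the 22 alternatives the class medians stayed above 0 for the C3 and terminal, myeloid, endothelial and other genes, though single livers decided their size. With each liver left out in turn they ranged from 0.025 (without Brap F/F replicate 3) to 0.34 (without Brap F/F replicate 4) for C3 and terminal genes, from 0.15 (without Brap F/F replicate 3) to 0.38 (without Brap LKO replicate 3) for myeloid genes, from 0.48 to 0.61 for endothelial genes, from 0.017 (without Brap F/F replicate 4) to 0.46 (without Brap F/F replicate 2) for the other sources and from -0.42 (without Brap LKO replicate 4) to 0.069 (without Brap F/F replicate 4) for fibrinogen. The 0 calls among the 48 genes became 2 higher with the same total per liver (3.12% of all genes) and 3 with DESeq2 (3.7%). They became 10 higher and 1 lower with the acute phase level as a covariate (7.43% of all genes, chosen after seeing the data). At an adjusted p under 0.1 there were 2 higher, and the share of all genes at that looser threshold was not computed. Leaving out each liver gave 0 to 2 higher, the 2 without Brap F/F replicate 4 (1.51% of all genes in that fit). The 1 higher gene among the other pathway genes (Itgax) became 0 with quantile normalization and with the series of animal numbers as a covariate, and 0 to 1 when each liver was left out (1 only without Brap F/F replicate 4). Lower genes there became 1 with DESeq2 and 2 with the acute phase covariate. Since the animal numbers put 3 livers of Brap LKO with only 1 of Brap F/F, that fit gives the values within series: 0.95 for C3ar1 and 0.57 for Vwf.

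The same total per liver moved class medians to 0.20 (recognition, and all 48 genes), 0.11 (clotting factors) and 0.15 (anticoagulant), and quantile normalization to 0.060 (clotting factors), 0.18 (anticoagulant) and 0.17 (all 48 genes). Log2 fold changes that turned sign did so with the same total for Masp2 (0.017), F2 (0.012), F12 (0.0082), C3 (0.096), Kng1 (0.029) and Plg (0.15), and with quantile normalization for C3 (0.16), Kng1 (0.037), Fga (0.084), Fgg (0.0031) and Plg (0.23). Plg, at -0.0041, was also above 0 with TMM factors (0.0092), the animal series (0.014), edgeR (0.0058) and the acute phase covariate (0.023). Cfd went to -1.19 with edgeR, -1.21 with DESeq2 and -0.24 with the acute phase covariate. With each liver left out in turn, C4b ranged from -0.059 to 0.18, C3 from -0.13 to 0.028, Fga from -0.42 to 0.11, Fgg from -0.42 to 0.057, Plg from -0.041 to 0.056 and Cfd from -0.75 to 1.54. The same total per liver rescales every gene of a liver alike, and with it the median of all genes tested rose too, from -0.01 to 0.15. The cause of the other moves was not tested.

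With the replicate number as a block, 0 of the 48 genes were called, with C3ar1 at an adjusted p of 0.117, and 1 other pathway gene was higher, so the replicate block changed no call. Deviations of same-numbered livers correlated at -0.13, 0.0034, 0.20 and 0.29, and not every liver correlated best with its own number, so the numbers were not taken as pairs. At 4 livers per group and this depth, the 95% confidence interval reached past 0.5 on at least 1 side for all 7 myeloid, all 4 endothelial and all 3 fibrinogen genes.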
